A study of Mus musculus with 8 samples.

Results

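Goblet cells of the mouse colon were examined in a single-cell RNA-seq series on sorted epithelium of the colon and cecum. A colon cell was called a goblet cell when Muc2, Fcgbp, Clca1, Zg16, Tff3, Spink4, Agr2 and Reg4 together made up at least 0.5% of its transcripts, so the members were selected on the measured values of these 8 genes. Of 8067 colon cells with at least 500 transcripts in the GF and Abx_14D samples, 639 (7.92%) met the rule, and the whole series held 15916 cells of that depth. GF samples came from germ-free mice and Abx_14D samples from mice given antibiotics. Each group had 4 numbered samples of colon and 4 of cecum, and the same rule found 267 goblet cells in the cecum. The labels name no antibiotic, strain or age and do not say what 14D stands for. Neither group was an untreated control, so a difference between them has no baseline that tells which of the groups departed from it. The series title concerns nicotinic acid made by the microbiome, the identity of colon regions and susceptibility to injury.

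All groups shared the same handling. The epithelium was released with EDTA and dissociated with Dispase II and DNase I, and cells were pooled by condition. EPCAM+ CD45- cells were then sorted as CD44+ and CD44- cells at equal numbers, so the sort set the balance of proliferative and differentiated cells and bears on every share given here. No label names the numbered samples as separate animals, so the p-values given here speak only of variation among the numbered samples, part of which may be technical. In goblet cells, the X-inactivation transcript Xist had 1335, 1323, 21.3 and 20.2 CPM (transcripts of a gene per 1000000 transcripts in the summed goblet cells of a sample) in GF samples 1 to 4, against 1164, 1277, 15.6 and 18.1 CPM in Abx_14D samples 1 to 4. The Y-linked Ddx3y was high in the samples where Xist was low, in both groups. By these transcripts the samples with high Xist read as female and those with low Xist as male, in both groups alike. The main fit of GF against Abx_14D held no term for this split.

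Goblet cells are the secretory cells that build the mucus layer of the gut. They fold and join the mucin Muc2 in the endoplasmic reticulum, dress it with O-linked sugars in the Golgi, pack it into granules and release it into the lumen. Their fate is set by the transcription factor Atoh1 and reinforced by Spdef, while Notch signals from neighbouring cells hold progenitors away from it.

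The goblet cells were not evenly spread over the samples. GF samples 1 to 4 held 117, 95, 102 and 83 of them, against 75, 72, 52 and 43 in Abx_14D samples 1 to 4. As a share of kept colon cells this was 8.46%, 6.67%, 13.9% and 12.3% in GF samples, against 3.98%, 9.29%, 9.59% and 6.63% in Abx_14D samples. The shares overlapped between the groups. They averaged 10.3% ± 3.35 in GF and 7.37% ± 2.63 in Abx_14D (SD, n = 4 each), a difference of 2.97 percentage points that a two-sided exact permutation test did not separate from the spread between samples (p = 0.229, with 0.0286 the smallest that 70 arrangements of 4 against 4 allow). Summed over its goblet cells, a colon sample gave 773513 to 3072441 transcripts.

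The strength of the marker signal moved in part with the group. The median goblet cell held 2.83%, 2.66%, 2.89% and 2.50% marker transcripts in GF samples 1 to 4, against 1.14%, 2.73%, 2.04% and 1.12% in Abx_14D samples 1 to 4. The medians of Abx_14D samples 1, 3 and 4 lay below those of all GF samples, and that of Abx_14D sample 2 lay among them. Cells at 5% or more numbered 33, 23, 35 and 21 in GF samples, against 0, 19, 11 and 5 in Abx_14D samples. Abx_14D sample 1 stood apart: it held no goblet cell at 5% or more, its Muc2 level was the lowest of the 8 samples (9554 CPM, against 27586 to 45796 CPM in the other 7), and a single cell gave 17.0% of its goblet transcripts. The levels in goblet cells of the colon are sums over cells of unlike marker strength, so the results below are also given by strength.

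Around the threshold the marker share changed gradually. The members closest to it had 0.501%, 0.501% and 0.505% marker transcripts, and the closest colon cells outside the rule had 0.499%, 0.495% and 0.492%. There were 36 colon cells at 0.5% to 0.6% and 45 at 0.4% to 0.5%. The median member had 2.17% and the highest 18.7%, while the median of all other colon cells was 0.0126%. Goblet cells were also deeper, with a median of 19747 transcripts per cell against 14113 in the other colon cells.

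**Figure D1:**
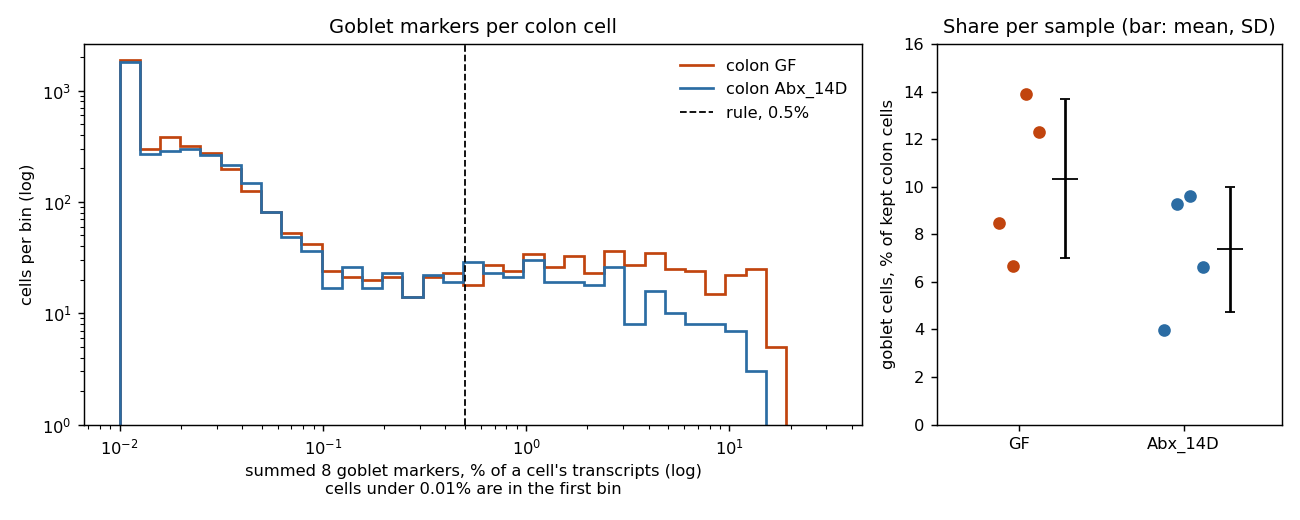
Left, number of colon cells (log axis) by the summed share of the 8 goblet markers in percent of a cell's transcripts (log axis), for GF and Abx_14D, with the rule at 0.5% as a dashed line. Right, goblet cells as a percent of kept colon cells, 1 point per sample with mean and SD; GF samples lie at 6.67% to 13.9% and Abx_14D samples at 3.98% to 9.59%, and the groups overlap.

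The 8 genes of the rule are described without a test, since they chose the cells. Muc2, the gel-forming mucin, supplied 84.2% of the members' marker counts and had at least 1 count in 99.5% of goblet cells and in 51.7% of other colon cells, at the median depths given above. Its level was 31078 ± 10277 CPM in goblet cells and 109 CPM in other colon cells (mean ± SD over 8 samples for goblet cells, mean for the others, here and in the next sentences). Fcgbp, a mucus protein that binds the Muc2 network, averaged 2400.1 ± 614 CPM in goblet cells, against 33.1 CPM in the others. Clca1, a protease secreted with mucus, averaged 987 ± 486 CPM in goblet cells, against 3.36 CPM in the others, and Zg16, a lectin that binds Gram-positive bacteria, 345 ± 171 CPM against 3.04 CPM. These 4 genes code for parts of the mucus itself.

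Tff3, a trefoil peptide, averaged 239 ± 67.1 CPM in goblet cells, against 8.48 CPM in other colon cells. Spink4 averaged 381 ± 86.4 CPM, against 8.25 CPM. Agr2, a disulfide isomerase needed to make Muc2, averaged 1264 ± 196 CPM, against 88.3 CPM, and the lectin Reg4 averaged 423 ± 118 CPM, against 15.0 CPM. Agr2 was thus the least restricted of the 8 by this ratio, with counts in 96.1% of goblet cells and 41.9% of the others. In the 8 colon samples Clca1 had counts in 39.3% of goblet cells and Zg16 in 27.5%, so many cells met the rule on Muc2 without them.

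Genes outside the rule carried the same identity, again as a description. Atoh1, the factor that commits cells to the secretory fate, had 125, 136, 179.9 and 214 CPM in goblet cells of GF samples and 129, 176, 200.4 and 164 CPM in those of Abx_14D samples, against 3.05 to 12.9 CPM in other colon cells. Spdef, which drives goblet maturation, had 249, 159, 276 and 302 CPM in GF goblet cells and 140.1, 202, 176 and 187 CPM in Abx_14D goblet cells, against 2.59 to 7.79 CPM in other colon cells. Every goblet sample was above every sample of other colon cells for both factors.

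Genes of the machinery that makes and moves mucin, chosen for this description after their values were seen, were also higher in goblet cells. The O-glycosylation starter Galnt7 averaged 1879.7 ± 231 CPM in goblet cells, against 452 CPM in other colon cells. Gfpt1, which feeds the hexosamine pathway, averaged 1882 ± 239 CPM against 441 CPM, and Gmds, needed for GDP-fucose, 4488 ± 223 CPM against 2009 CPM. These enzymes were well expressed in other colon cells too, and their ratio was smaller than that of the fate factors. Ern2, the stress sensor IRE1 beta of mucin-secreting cells, averaged 425 ± 52.9 CPM against 72.9 CPM, and Sytl2, a granule docking protein, 527 ± 82.5 CPM against 14.3 CPM. The transporter Slc12a8 averaged 1231 ± 139.8 CPM in goblet cells, against 38.3 CPM in the others, and the anion channel Best2, a mark of colonic goblet cells, 107 ± 32.6 CPM against 3.04 CPM. Nlrp6, an inflammasome sensor described in mouse goblet cells, went the other way, with 51.6 ± 30.4 CPM in goblet cells and 263 CPM in the other colon cells.

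Markers of several other cell types were low in the goblet sums, while absorptive, stem and progenitor and cell cycle genes were present. The 14 enteroendocrine genes summed to 3.88 to 23.2 CPM in the 8 colon goblet samples, against 59.8 to 274 CPM in the other colon cells of the same samples, with Neurod1, Insl5, Sst and Fev at 0 counts in goblet cells of both groups. The 10 tuft genes summed to 4.90 to 20.02 CPM in 7 samples and to 117 CPM in GF sample 1. The 11 immune genes summed to 1.51 to 12.9 CPM, with Cd3e, Cd3g and Coro1a at 0 counts in both groups, and the 10 stroma genes to at most 3.88 CPM, with Col1a1, Col1a2, Col3a1, Dcn and Pdgfra at 0 counts. The 7 Paneth genes summed to 1.95 to 25.9 CPM in goblet cells, above the 0.280 to 1.45 CPM of other colon cells in every sample, with Defa24, Defa21, Defa30 and Defa17 at 0 counts in goblet cells. Absorptive genes were present in all goblet samples, at 1422 to 2387 CPM, a level that the other colon cells also had (1538 to 2028 CPM). The 12 absorptive genes thus did not set the goblet cells apart. The 12 stem and progenitor genes summed to 2508 to 3432 CPM in goblet cells, against 3615 to 5803 CPM in the other colon cells. The 21 cell cycle genes summed to 312 to 909 CPM, against 857 to 1470 CPM, with overlap. In 16 goblet cells another of these cell type lists (absorptive, enteroendocrine, tuft, immune or stroma) held at least 0.5% of the transcripts, which numbered 4, 1, 5 and 5 in GF samples and 1, 0, 0 and 0 in Abx_14D samples, and no doublet caller was run.

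Within the goblet cells, gene expression changed with marker strength. The cells were split at 2%, 5% and 10% marker transcripts into 304, 188, 94 and 53 cells, whose median depth was 16997, 20485, 22466 and 28897 transcripts. The genes of the next sentences were chosen after their values were seen, and because the split uses the rule's own measure nothing here is tested. CPM are shares of a total that the markers themselves fill in part. In the 6 samples with at least 10 cells both under 2% and at 5% or more (all but Abx_14D 1 and 4), 571 of 9048 genes (6.31%) were higher at 5% or more in every sample and 1868 (20.6%) were lower in every sample.

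Enzymes that build and end mucin sugar chains were among the genes that were higher in the strongly marked cells. Of 31 O-glycosylation genes at 10 CPM or more, 17 were higher at 5% or more in all 6 samples and 2 were lower. A4gnt, which adds terminal alpha-linked N-acetylglucosamine, had 22.02, 56.5, 162 and 293 CPM in the 4 classes in rising order of marker strength. The core 3 enzyme B3gnt6 had 2.26, 7.82, 38.7 and 119 CPM, and the branching enzyme Gcnt3 had 166, 275, 535 and 875 CPM. Each of these 3 enzymes was lowest in the weakest class and highest in the strongest. Cmah, which makes N-glycolylneuraminic acid, had 27.6, 108, 243 and 477 CPM.

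Genes outside this list also climbed, by differing amounts. Plet1, a surface protein, had 30.3, 116, 349.8 and 774 CPM over the 4 classes, and the matricellular protein Ccn3 had 16.9, 49.7, 171 and 438 CPM. Retnlb, a secreted antibacterial protein, had 4.98, 24.2, 54.9 and 95.9 CPM, and Klk1, a secreted protease, 334, 620.0, 888 and 1141 CPM. Spdef had 135, 226, 309 and 421 CPM, whereas Atoh1 had 122, 174, 209 and 203 CPM and was flat above 5%. All of these except Atoh1 were higher at 5% or more than under 2% in 6 of 6 samples.

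Several goblet genes were highest below the strongest class. Fcgbp, Clca1, Zg16 and Reg4 belong to the sum that sets the classes, in which Muc2 supplied 84.2% of the counts. The sample counts given for cells at 5% or more do not cover the levels over 10%, which are pooled over cells. Fcgbp had 1427, 2496, 5657 and 2503 CPM over the 4 classes, Clca1 379, 758, 2843 and 1227 CPM and Zg16 109.6, 252, 1140.5 and 484 CPM. All 3 peaked at 5% to 10% and were lower in the 53 cells over 10%, 44 of which came from GF samples and 9 from Abx_14D samples. The granule genes Rab27b (207, 364, 554 and 412 CPM) and Capn9 (23.5, 53.7, 105 and 47.9 CPM) had the same shape. Reg4 had 427, 540.0, 503 and 16.4 CPM and Best2 114, 110.5, 86.2 and 16.4 CPM, so both were lowest in the most strongly marked cells, as was Mptx1, a pentraxin, with 1904, 2476, 1809.6 and 337 CPM. Of 22 granule and exocytosis genes, 8 were higher at 5% or more in every sample and none was lower.

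Genes known from stem cells and secretory progenitors were highest in the weakly marked cells. Lgr5, the stem cell receptor, had 91.2, 14.9, 8.82 and 4.11 CPM over the 4 classes, and Dll1, a Notch ligand carried by secretory progenitors, had 118, 80.7, 51.9 and 13.0 CPM. Muc3, a membrane mucin of absorptive cells, had 649, 89.5, 61.2 and 28.1 CPM. Nlrp6 had 90.0, 34.1, 15.2 and 13.0 CPM. The posterior factor Hoxb13 had 61.7, 48.2, 25.5 and 8.90 CPM and was lower at 5% or more in 5 of 6 samples, while the other genes of this group were lower in 6 of 6. Of the lists, 6 of 10 stem and progenitor genes, 6 of 13 cell cycle genes, 7 of 11 Notch pathway genes and 8 of 21 fatty acid oxidation genes were lower in every sample, and none was higher. The cell cycle list summed to 727, 858, 317 and 340 CPM over the 4 classes and was thus highest at 2% to 5%. The absorptive list did not follow, with 1 of 7 genes lower in every sample and sums of 2022, 1574, 1909 and 1606 CPM over the 4 classes. The Paneth list, at low counts, summed to 1.51, 9.08, 13.2 and 21.2 CPM.

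**Figure D2:**
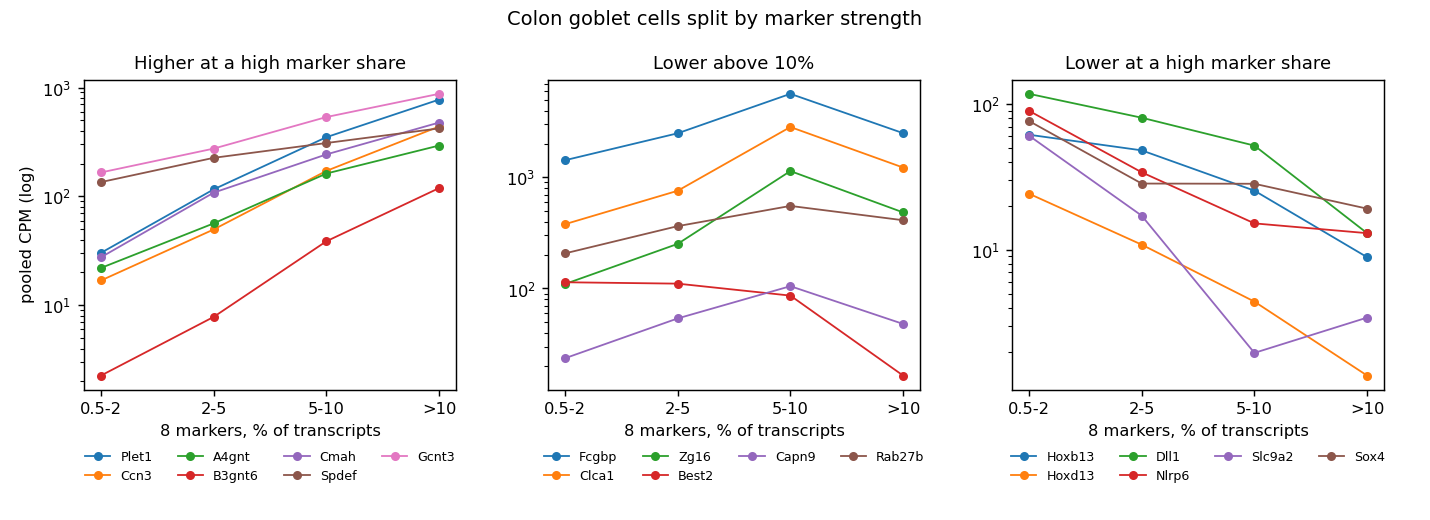
Pooled level (CPM, log axis) in colon goblet cells of 4 classes of marker strength (0.5 to 2%, 2 to 5%, 5 to 10% and over 10% of transcripts; 304, 188, 94 and 53 cells). Plet1 climbs to 774 CPM in the strongest class, Fcgbp, Clca1 and Zg16 peak at 5 to 10%, and Dll1 falls to 13.0 CPM.

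The next comparison set goblet cells of germ-free mice against those of mice given antibiotics. Goblet cells of GF colons had far lower levels of interferon-stimulated genes and of genes of antigen presentation. Apart from these, few genes differed. Over 9985 genes tested, 66 changed (0.661%), 10 of them higher in GF (0.1%) and 56 lower (0.561%), by edgeR's quasi-likelihood test at a Benjamini-Hochberg adjusted p under 0.05. The interferon list held 48 tested genes of 57, of which 33 fell and none rose, with a median log2 change of -1.88 beside -0.01 over all genes tested. Of the 8 genes of the MHC class II list 2 were tested, and both fell, but they were near 0 in GF and passed the filter on low counts through the Abx_14D samples. The same holds for interferon genes near 0 in GF, so these counts and medians describe only the genes that passed the filter. Without Abx_14D sample 1, the sample that stood apart, 73 genes passed, 53 of them among the 66.

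Members of the family of 2'-5' oligoadenylate synthetases, which sense double-stranded RNA, were lower in GF. Oas2 had 3.25, 1.34, 1.33 and 6.48 CPM in GF samples 1 to 4, against 70.8, 129, 101 and 62.1 CPM in Abx_14D samples 1 to 4. Every GF sample was far below every Abx_14D sample, with a log2 change of -4.97 ± 0.39 (SE, edgeR adjusted p = 3.93e-05). Oasl2 had 5.21, 3.12, 4.44 and 8.64 CPM in GF, against 84.2, 109, 78.7 and 33.6 CPM in Abx_14D, again without overlap, and changed by -3.91 ± 0.37 (SE, edgeR adjusted p = 0.000223).

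Guanosine triphosphatases that act on vacuoles of intracellular microbes fell as well. Gbp3, a guanylate-binding protein, had 1.63, 0.892, 0.888 and 1.44 CPM in GF samples, against 22.1, 31.7, 44.8 and 12.9 CPM in Abx_14D samples, a log2 change of -4.45 ± 0.44 (SE, edgeR adjusted p = 0.000298). Irgm2, an immunity-related GTPase, had 2.93, 5.35, 10.2 and 6.48 CPM in GF, against 42.6, 49.0, 43.0 and 33.6 CPM in Abx_14D, a log2 change of -2.79 ± 0.31 (SE, edgeR adjusted p = 0.000462). Neither gene overlapped between the groups. Iigp1 of the same family had 2 counts over the GF samples and 314 over the Abx_14D samples, a level 274-fold lower in GF (95% counting interval 75.1 to 2268).

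Other genes of the interferon list fell by differing amounts. Parp14, an ADP-ribosyltransferase, had 28.3, 29.0, 28.4 and 41.8 CPM in GF samples, against 127, 121, 115 and 54.3 CPM in Abx_14D samples. All GF samples were below all Abx_14D samples, and the log2 change was -1.75 ± 0.24 (SE, edgeR adjusted p = 0.00237). Ifih1, the RNA sensor MDA5, changed by -1.12 ± 0.18 (SE, edgeR adjusted p = 0.00851). Eif2ak2, the RNA-activated kinase PKR, changed by -0.99 ± 0.18 (SE, edgeR adjusted p = 0.0203) and Dtx3l by -1.02 ± 0.20 (SE, edgeR adjusted p = 0.0379), but they passed in only 4 of the 8 and 1 of the 8 fits that leave out 1 sample. Ifi44 (-4.32 ± 0.46, edgeR adjusted p = 0.000395) and Xaf1 (-3.35 ± 0.35, edgeR adjusted p = 0.000361) also fell. The best expressed interferon genes that did not pass were Samd9l (-1.005), Irf1 (-0.67), Stat2 (-1.16) and Helz2 (-0.95), with log2 changes given in parentheses.

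Genes of antigen presentation fell in the same samples. Cd74, the invariant chain that guards MHC class II, had 4.88, 3.12, 1.33 and 1.44 CPM in GF samples, against 159.6, 91.3, 24.7 and 40.1 CPM in Abx_14D samples, a log2 change of -4.76 ± 0.59 (SE, edgeR adjusted p = 0.000913). The class II beta chain H2-Ab1 had 1.95, 1.78, 2.22 and 2.88 CPM in GF, against 33.9, 21.1, 17.4 and 9.05 CPM in Abx_14D (log2 change -3.28 ± 0.41, edgeR adjusted p = 0.00103). Nlrc5, the activator of MHC class I genes, changed by -3.81 ± 0.46 (SE, edgeR adjusted p = 0.000804). Neither group overlapped the other for any of these, although Cd74 spread widely among Abx_14D samples. The 11 immune markers, which include genes of B cells and myeloid cells, summed to 2.16 to 5.86 CPM in the GF sums and to 1.51 to 12.9 CPM in the Abx_14D sums, with Cd3e, Cd3g and Coro1a at 0 in both. Their part in the class II difference was not tested.

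MHC class I genes, singled out after their values were seen, were lower as well. B2m, the light chain of class I, had 94.4, 75.3, 84.8 and 82.1 CPM in GF goblet cells, against 329.5, 492, 371 and 318 CPM in Abx_14D goblet cells (log2 change -2.16 ± 0.15, edgeR adjusted p = 2.44e-05), the smallest adjusted p of the comparison. The heavy chains H2-K1 (-1.18 ± 0.14, edgeR adjusted p = 0.000787) and H2-D1 (-0.97 ± 0.14, edgeR adjusted p = 0.00372) fell less. The groups did not overlap for these 3 genes. Outside the lists, Sp100, a nuclear body protein (-2.69 ± 0.31, edgeR adjusted p = 0.000698), and Phf11d (-3.56 ± 0.37, edgeR adjusted p = 0.000361) fell as well. Rnf213, a ubiquitin ligase (-1.63 ± 0.17, edgeR adjusted p = 0.000298), and Usp18, a protease of the interferon list that removes ISG15 (-4.22 ± 0.50, edgeR adjusted p = 0.000727), were named after their values were seen. The peptide transporter Tap1 and the immunoproteasome subunits Psmb8 and Psmb9 fell, but each passed in at most 2 of 8 fits without 1 sample.

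**Figure D3:**
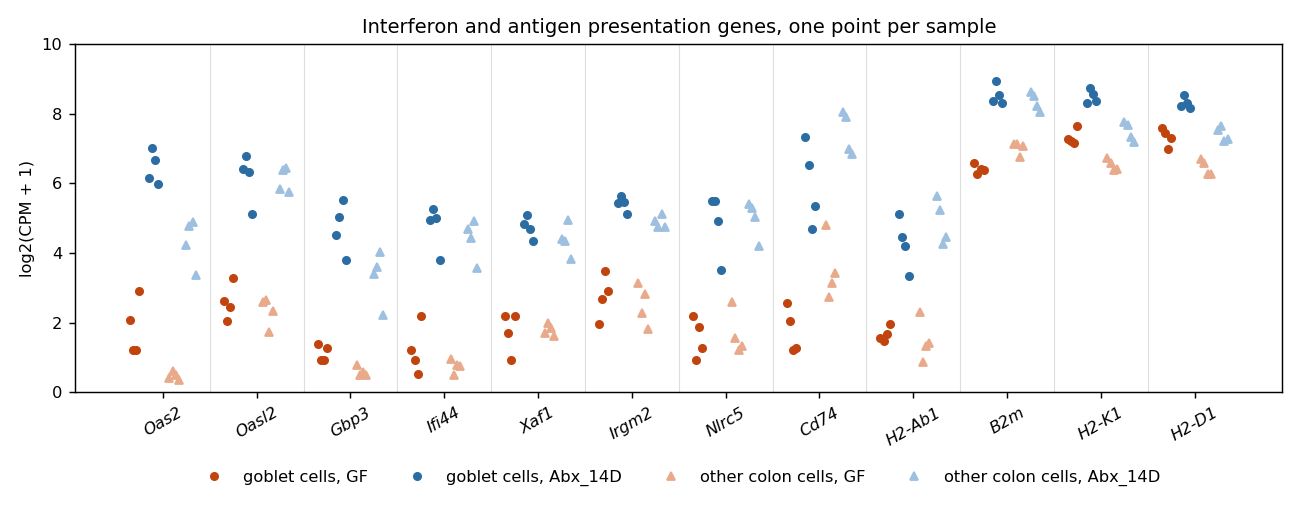
Level as log2(CPM + 1) of 12 interferon and antigen presentation genes, 1 point per sample, in goblet cells (circles) and other colon cells (triangles) of GF and Abx_14D colons. In goblet cells the 4 GF points lie below the 4 Abx_14D points for every gene shown, for example 75.3 to 94.4 against 318 to 492 CPM for B2m.

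Since these genes moved together, the promoters of the interferon genes that fell were read from the RefSeq promoter table of build GRCm38.p6, an older build than the GRCm39 of the deposited gene table. The interferon-stimulated response element has the core GAAANNGAAA, which was searched on both strands in the 250 bases before the start, with overlapping matches counted separately. Entries of 20 of the 33 genes that fell were used. Of their 23 entries, 7 held the core, each of a different gene, against 978 of 32851 promoters (2.98%) in the whole table. As the list was made of interferon genes, this share says nothing on the GF difference. The 80 bases before the start of 5 of the 7 are printed so that the element can be seen, each 5′ to 3′ along its gene with the core in capitals. Gbp3 lies at chr3:142559964-142560043 and Igtp at chr11:58199476-58199555, both on the plus strand, and Irgm2 at chr11:58214897-58214976, also on the plus strand. Irgm1 lies at chr11:48871421-48871500 and Oas1a at chr5:120907526-120907605, both on the minus strand.
Gbp3: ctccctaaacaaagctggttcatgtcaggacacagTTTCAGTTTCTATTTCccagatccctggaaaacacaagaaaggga
Igtp: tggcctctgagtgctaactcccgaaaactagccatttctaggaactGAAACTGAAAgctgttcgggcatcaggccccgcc
Irgm2: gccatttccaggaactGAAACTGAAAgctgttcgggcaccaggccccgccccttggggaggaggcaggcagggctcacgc
Irgm1: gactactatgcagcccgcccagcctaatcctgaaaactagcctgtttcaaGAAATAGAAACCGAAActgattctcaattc
Oas1a: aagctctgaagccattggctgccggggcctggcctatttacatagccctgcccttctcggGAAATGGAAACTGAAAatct
In Gbp3 the core reads on the opposite strand and appears as its reverse complement. Irgm1, Oas1a and Gbp3 each held 2 overlapping cores. The levels behind these sequences were 1.34 to 5.04 CPM for Igtp in GF against 7.54 to 12.8 CPM in Abx_14D, 13.8 to 22.3 against 39.0 to 50.3 CPM for Irgm1, and 7.13 to 13.0 against 23.3 to 51.3 CPM for Oas1a. A match is a description of letters and not a shown binding site. Oas1a, Igtp, Iigp1 and the Irgm genes have close relatives in the genome, and how reads shared between copies were counted is not given in the sources used here, so the split between copies is uncertain.

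The interferon genes were lower in GF at low as well as at high marker strength. In goblet cells under 2% alone, an alternative added after the data were seen, 7 of 24 tested interferon genes fell and none rose, with a median log2 change of -1.34. In all, 13 of 7825 genes passed there, and all 13 were among the 66. In cells at 2% or more, with 4 GF and 2 Abx_14D samples left, 34 of 46 interferon genes fell, among 78 genes that fell and 12 that rose of 9078. Oas2 changed by -6.62 under 2%, B2m by -1.73, Cd74 by -4.55 and Parp14 by -1.72, each with an edgeR adjusted p under the threshold (0.000113, 0.000458, 0.00249 and 0.03). Leaving out cells that also held another cell type list gave 29 of 44 interferon genes that fell, among 55 that fell and 10 that rose of 9683.

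The genes that rose in GF goblet cells were few and had no common list. Rora, a nuclear receptor of the circadian loop, had 102, 139.5, 75.5 and 28.8 CPM in GF samples, against 10.8, 6.03, 25.6 and 10.3 CPM in Abx_14D samples. The lowest GF sample lay just above the highest Abx_14D sample, and the log2 change was 2.75 ± 0.47 (SE, edgeR adjusted p = 0.0109), which no longer passed without Abx_14D sample 2. Rora was the 1 of 15 tested clock genes that changed. It was highest in the weakly marked class and lower at 5% or more in 6 of 6 samples (103, 40.9, 16.7 and 17.1 CPM over the 4 classes) while such cells made up 37.3% to 45.3% of goblet cells in GF samples and 43.1% to 74.7% in Abx_14D samples. Under 2% alone its log2 change was 3.69 (edgeR adjusted p = 0.0178).

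Several other genes that rose were also higher in strongly marked cells, and cells at 5% or more made up 24.2% to 34.3% of goblet cells in GF samples, against 0% to 26.4% in Abx_14D samples. Myrip, which links granules to the actin cytoskeleton, had 81.7, 94.1, 134 and 109 CPM in GF samples, against 34.9, 43.7, 41.2 and 56.9 CPM in Abx_14D samples, a log2 change of 1.27 ± 0.20 (SE, edgeR adjusted p = 0.00603). By marker strength it had 34.2, 66.8, 138 and 245 CPM, and under 2% its log2 change was 0.17 and did not pass. Car8, a carbonic anhydrase relative, had 721, 667, 761 and 650.2 CPM in GF, against 391, 491, 394 and 341 CPM in Abx_14D, a log2 change of 0.79 ± 0.13 (SE, edgeR adjusted p = 0.00851). Its levels by marker strength were 369.7, 634, 1035 and 927 CPM, and its change under 2% was 0.32.

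The long non-coding RNA Neat1 had 2289, 1962, 2031 and 2044 CPM in GF samples, against 1141, 1309, 1341 and 1295 CPM in Abx_14D samples, without overlap and with a log2 change of 0.71 ± 0.11 (SE, edgeR adjusted p = 0.00795). Under 2% its change was 0.12. Myrip, Car8 and Neat1 passed in all 8 fits that leave out 1 sample. Fewer of these fits called other genes that rose, among them the calcium channel Cacna1h (1.75 ± 0.34, edgeR adjusted p = 0.0305, called in 2 of the 8 fits), the procollagen peptidase Adamts3 (1.68 ± 0.31, edgeR adjusted p = 0.023, called in 3 of the 8 fits), the growth factor Pdgfd (1.18 ± 0.21, edgeR adjusted p = 0.0172, called in 4 of the 8 fits) and Plcl1 (0.96 ± 0.18, edgeR adjusted p = 0.0235, called in 2 of the 8 fits). Klhl13, named after its values were seen, also passed, at low counts (83 counts in GF and 6 in Abx_14D). How much of these differences goes with marker strength was not tested beyond the values under 2%.

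Few genes of the mucin programme passed the test between GF and Abx_14D goblet cells. Of 31 O-glycosylation genes tested, 1 fell and none rose (median 0.06), and the log2 changes ran from -0.74 to 0.99. The highest, of A4gnt, did not pass (0.99 ± 0.24, edgeR adjusted p = 0.122). The gene that fell, the sialyltransferase St3gal6, had 400.3, 432, 530.2 and 495 CPM in GF samples, against 663, 741, 765 and 931 CPM in Abx_14D samples. The groups did not overlap and the log2 change was -0.74 ± 0.14 (SE, edgeR adjusted p = 0.0218), but the call was lost with TMM scaling and in 4 of 8 fits without 1 sample, and under 2% the change was -0.25. St3gal6 was lower in strongly marked cells (650.2, 580.4, 412 and 313 CPM over the 4 classes).

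No gene of the other lists passed, apart from the Rora call. The 16 secretory fate factors tested had a median log2 change of -0.05, the 32 genes of ER folding -0.08, the 22 genes of granule traffic 0.11, the 24 genes of sulfation and sugar supply -0.03 and the 11 Notch pathway genes 0.16. Creb3l1 changed by 0.06 ± 0.14 (SE), Spdef by 0.48 ± 0.19 and Klf4 by -0.28 ± 0.14. The 14 cargo genes outside the rule had a median of -0.43, with 11 of them negative, and the 10 antimicrobial and oxidase genes -0.62. The 18 ion transport genes (0.13), 22 innate sensing genes (-0.18), 24 region factors (0.15), 16 nicotinic acid and NAD genes (-0.20), 21 fatty acid oxidation genes (-0.05), 5 membrane mucins (-0.40) and 7 type 2 response genes (-0.29) held no call. The 16 dissociation stress genes had a median of -0.32 and no call. The 10 stem and progenitor genes (0.02), 21 cell cycle genes (0.18) and 8 absorptive genes (-0.01) also held none.

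**Figure D4:**
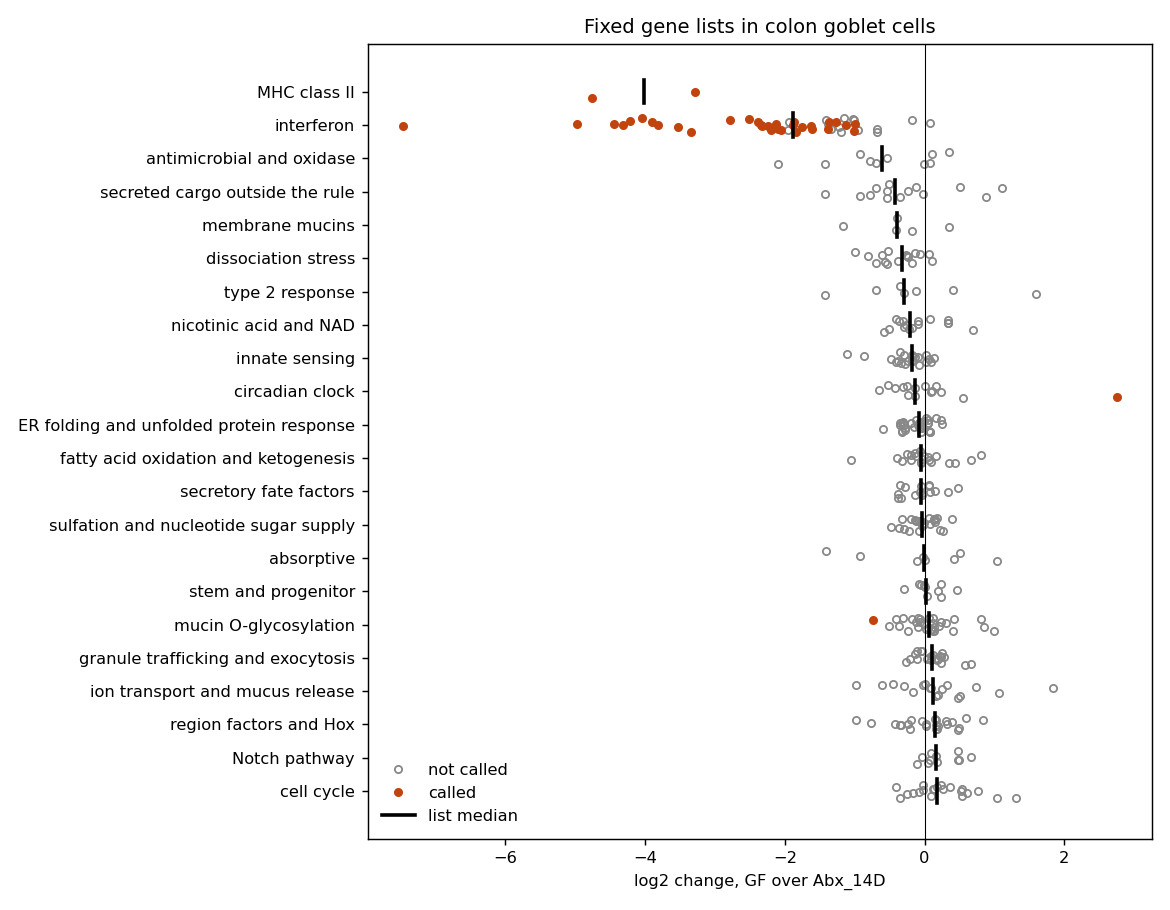
Log2 change of GF over Abx_14D in colon goblet cells for the tested members of 22 gene lists, 1 point per gene, with called genes filled and a bar at each list's median. The interferon list centres at -1.88 and the MHC class II list at -4.02, and Rora and St3gal6 are the other called genes.

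The GF difference in goblet cells was set against the same difference in the other colon cells of these samples. Over 12634 genes, 1 gene (0.00792%) had a GF effect in goblet cells that differed from that in the other colon cells by edgeR's interaction test. None of 54 interferon genes passed, and their median difference of effects was -0.03 beside -0.04 over all genes. Oas2 had 0.280 to 0.532 CPM in other colon cells of GF samples, against 9.39 to 28.8 CPM in those of Abx_14D samples. B2m had 108 to 139 CPM in GF, against 264 to 391 CPM in Abx_14D, and Rora 245 to 314 CPM against 48.2 to 94.6 CPM. None of these groups overlapped, and the effect on B2m differed between goblet and other colon cells by -0.80 on the log2 scale (edgeR adjusted p = 0.497). A difference of effects that misses the threshold does not show that the effects were alike.

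The single gene was Slfn4, a Schlafen family member induced by interferon in mouse myeloid cells. In goblet cells it had 27.3, 15.2, 34.2 and 25.9 CPM in GF samples, against 13.9, 18.9, 42.1 and 9.05 CPM in Abx_14D samples, and the groups overlapped. In the other colon cells it had 5.72, 6.91, 5.25 and 5.87 CPM in GF, against 19.3, 24.1, 69.2 and 12.005 CPM in Abx_14D, without overlap. The log2 ratio of the group means was 0.29 in goblet cells and -2.39 in the others, and the effects differed by 2.58 ± 0.31 (SE, edgeR adjusted p = 0.0239). The call was lost when cells holding another cell type list were left out and without any one of GF samples 1, 3 and 4 or Abx_14D samples 2, 3 and 4.

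No gene passed the test for a GF effect that differed between goblet cells of the cecum and of the colon. Such a miss does not show that the effects were alike. Of 10227 genes tested 0 (0%) passed by edgeR, 831 had an unadjusted p under 0.05, and DESeq2 called 20. The count was 28 without cecal GF sample 1 and 1 without colon GF sample 1. In cecal goblet cells Oas2 had 0, 1.92, 0 and 0 CPM in GF samples, against 20.5, 81.5, 50.8 and 10.3 CPM in Abx_14D samples, and B2m had 89.5, 131, 156 and 205 CPM in GF, against 308, 277, 255 and 397 CPM in Abx_14D. Both genes were lower in every cecal GF sample than in any cecal Abx_14D sample, and the test of the difference of effects gave an edgeR adjusted p of 0.908 for Oas2 and 0.322 for B2m. The interferon list had 0 of 49 calls and a median difference of -0.21, beside 0.04 over all genes. Other lists, singled out after their values were seen, leaned to one side without a call. The difference was positive for 20 of 21 cell cycle genes (median 0.90) and 31 of 32 ER folding genes (0.43). It was negative for 8 of 9 absorptive genes (-2.51). The 12 absorptive markers summed to 1503, 6167, 6119 and 13682 CPM in cecal GF samples 1 to 4, against 1644 to 3057 CPM in cecal Abx_14D samples. Goblet cells that also met another cell type list numbered 0, 4, 6 and 9 in cecal GF samples and 1, 0, 3 and 4 in cecal Abx_14D samples. The part of such cells in these leanings was not tested. Rora had 1.34, 14.7, 20.6 and 35.1 CPM in cecal GF samples, against 7.24, 10.2, 19.4 and 31.0 CPM in cecal Abx_14D samples, with overlapping groups.

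Goblet cells of the colon and of the cecum differed widely. The cecal goblet sums rested on 22 to 51 cells and 490625 to 1562490 transcripts a sample, and 1 cell gave 32.5% of the sum of cecal GF sample 4. With both conditions in 1 fit, 2526 of 10227 genes changed (24.7%), of which 971 were higher in colon goblet cells (9.49%) and 1555 were lower (15.2%). The split moved with the scaling, to 1253 higher and 1181 lower with TMM and 1298 higher and 1256 lower with DESeq2, and the median log2 change of all genes was -0.10 in the first and -0.01 with TMM. Without cells that met another cell type list, 1801 genes changed. That fit also lost cecal GF sample 4, whose 18 remaining goblet cells were under the minimum of 20. In goblet cells at 2% or more, colon Abx_14D samples 1 and 4 and cecal GF sample 4 fell under this minimum. Of the cecal Abx_14D samples only sample 3 was left, with 31 cells, so no conclusion is drawn from that fit. Levels below are the lowest, median and highest of 8 samples in each tissue.

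Colon goblet cells stood out by the enzymes that build mucin sugar chains. Of 31 O-glycosylation genes tested, 20 were higher in the colon and 4 lower, with a median log2 change of 0.86, and the counts were the same with TMM scaling. Leaving out cells with another cell type list, and with them cecal GF sample 4, gave 17 higher and 4 lower.

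B3galt5, which caps chains with galactose, had 185, 388 and 491 CPM in colon goblet cells, against 0, 1.08 and 12.042 CPM in cecal goblet cells, a log2 change of 7.63 ± 0.36 (SE, edgeR adjusted p = 2.97e-11). The core 2 enzyme Gcnt1 had 31.1, 49.5 and 69.4 CPM in the colon and 3 counts in all cecal samples, 122-fold higher in the colon (95% counting interval 41.7 to 595). B3gnt7, which extends chains with N-acetylglucosamine, had 149, 196 and 369.6 CPM in the colon, against 0, 1.69 and 2.93 CPM in the cecum (log2 change 7.22 ± 0.30, edgeR adjusted p = 3.55e-12). No colon sample overlapped a cecal one for these 3 enzymes, and the lowest colon sample was many times the highest cecal sample.

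Sialic acid and fucose followed. The sialyltransferase St3gal6 had 400.3, 597 and 931 CPM in colon goblet cells, against 3.62, 9.32 and 26.7 CPM in cecal goblet cells (log2 change 5.88 ± 0.24, edgeR adjusted p = 3.55e-12). Named after their values were seen, St6galnac6 (4.64 ± 0.25) and St6galnac4 (2.85 ± 0.32), and the fucosyltransferase Fut2 (2.56 ± 0.18), which makes the H antigen, were also higher in the colon (log2 change ± SE). So was C1galt1, which makes core 1 (1.24 ± 0.13). Gne, which starts sialic acid synthesis (1.25 ± 0.14), Gfpt1 (1.22 ± 0.13) and the CMP-sialic acid transporter Slc35a1 (0.65 ± 0.10) rose too, among 7 of 24 sulfation and sugar supply genes that were higher and 2 that were lower.

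Against this, 4 enzymes were lower in the colon. They were St3gal1 (-1.74 ± 0.30), B4galnt2, which makes the Sd(a) antigen (-1.56 ± 0.15), A4gnt (-1.30 ± 0.29) and B4galt1 (-1.11 ± 0.22), all but B4galnt2 named after their values were seen. The 2 sulfation genes that were lower in the colon were Papss2, which makes the sulfate donor, and Gal3st2c, a galactose sulfotransferase. Papss2 had 113, 168 and 199 CPM in colon goblet cells, against 569, 931 and 2527 CPM in cecal goblet cells (log2 change -2.87 ± 0.20, edgeR adjusted p = 4.74e-09). Gal3st2c had 90.6, 113 and 155 CPM in the colon, against 354, 558 and 635 CPM in the cecum (-2.16 ± 0.15, edgeR adjusted p = 3.45e-09). Neither overlapped between the tissues. Among the well expressed enzymes that did not pass were Galnt7 (0.34 ± 0.16) and Gcnt3 (-0.03 ± 0.15).

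Region factors separated the tissues in both directions. Hoxb13, a homeobox factor of the hindmost gut, had 36.1, 45.0 and 71.3 CPM in colon goblet cells and 1 count in all cecal goblet samples, 359-fold higher in the colon (95% counting interval 64.3 to 14210.2). Hoxd13, named after its values were seen, had 5.17, 10.6 and 34.9 CPM in the colon and 1 count in the cecum, 116-fold higher (20.6 to 4609). Hoxa13 (4.59 ± 0.84) and Osr2 (2.200 ± 0.31), also named after their values were seen, were the other 2 of 4 region factors that were higher, and 10 of 24 were lower. Those 10 were Tbx3 (-1.89 ± 0.21), Cdx2, the master factor of intestinal identity (-0.85 ± 0.14), Hoxa9 (-0.63 ± 0.20) and 7 genes of the Hoxb cluster, Hoxb3 (-1.18 ± 0.18), Hoxb4 (-1.38 ± 0.22), Hoxb5 (-1.24 ± 0.25), Hoxb6 (-1.39 ± 0.13), Hoxb7 (-1.11 ± 0.28), Hoxb8 (-1.26 ± 0.25) and Hoxb9 (-0.55 ± 0.12), of which Hoxb4, Hoxb5, Hoxb7 and Hoxb8 were named after their values were seen. Thus the last gene of the Hoxb cluster, Hoxb13, was higher in colon goblet cells and its genes from Hoxb3 to Hoxb9 were lower. Hnf4g (-0.34 ± 0.17), Hnf4a (-0.22 ± 0.11) and Cdx1 (0.04 ± 0.13) did not pass. For cells at 2% or more no count is given, since only cecal Abx_14D sample 3 was left of that group.

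**Figure D5:**
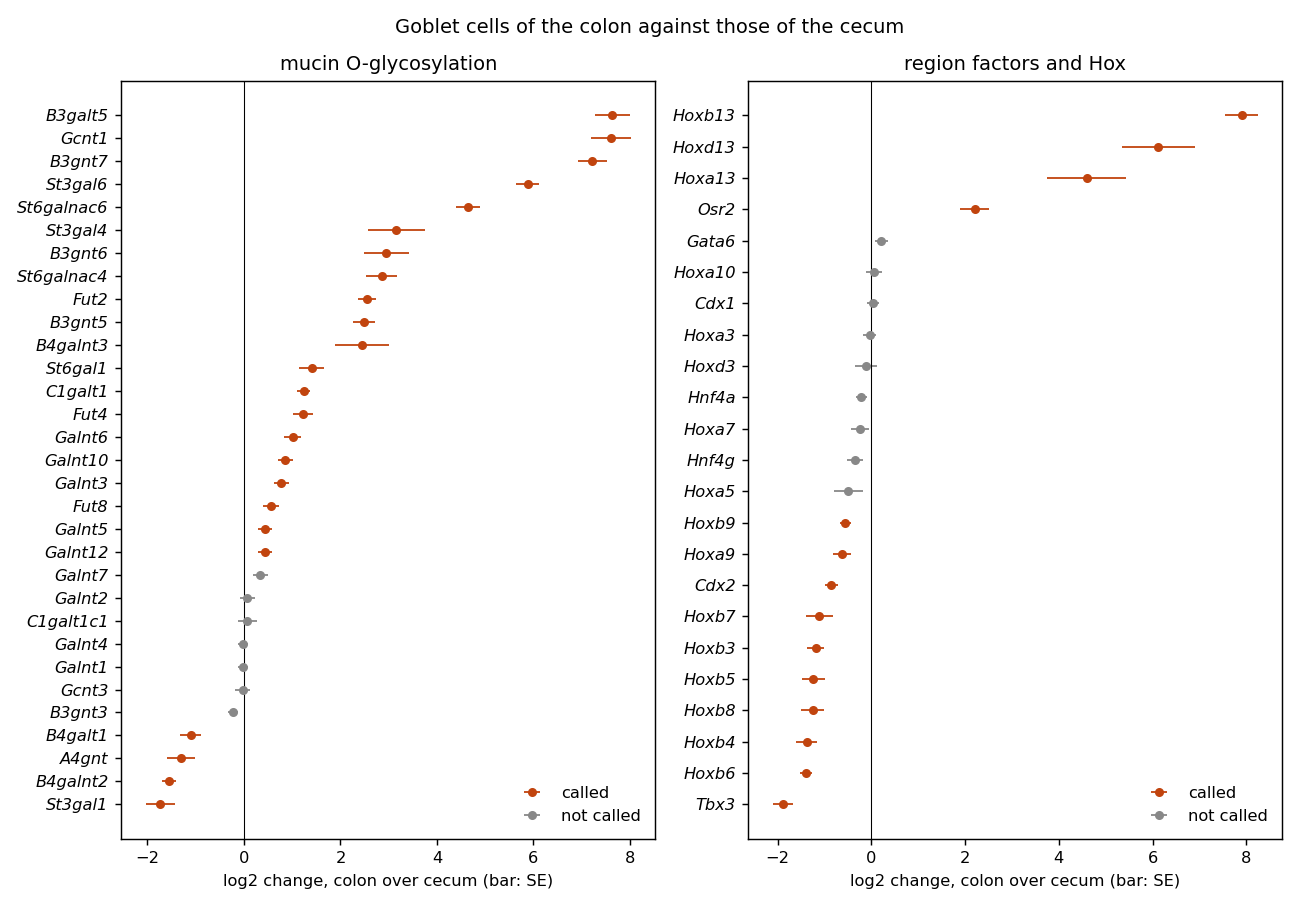
Log2 change, colon over cecum, with SE, for tested O-glycosylation genes (left) and most tested region factors and Hox genes (right) in goblet cells chosen by the same rule, with called genes in colour. On the left 20 of 31 genes lie to the right as called, led by B3galt5 at 7.63, and on the right 4 genes lie far to the right and 10 called genes to the left, down to Tbx3 at -1.89. Values for Hoxb13, Hoxd13 and Gcnt1 rest on at most 3 cecal counts.

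Secreted products differed by tissue as well, with the rule's own genes given as a description. Muc2 averaged 31078 ± 10277 CPM in colon goblet cells and 14208 ± 4448 CPM in cecal goblet cells, whereas Fcgbp averaged 2400.1 CPM in colon and 8131 CPM in cecum, Zg16 345 and 1384 CPM, Tff3 239 and 975 CPM, Spink4 381 and 1328 CPM, and Reg4 423 and 2614 CPM. Clca1, at 987 CPM in colon and 699.5 CPM in cecum, and Agr2, at 1264 and 850.0 CPM, had higher means in the colon, as Muc2 did. Outside the rule, 5 of 13 cargo genes were higher in the colon and 4 lower. Ccn3 had 5.13, 91.2 and 171 CPM in colon goblet cells and no count in cecal goblet cells, at least 234-fold higher against a floor of 3 counts over the cecal samples. The chemokine Ccl6 had 224, 407 and 540.0 CPM in the colon, against 2.196, 20.4 and 53.0 CPM in the cecum (log2 change 4.32 ± 0.38, edgeR adjusted p = 1.1e-07). Klk1 was higher (0.77 ± 0.20), and Retnlb (-1.94 ± 0.35), Dmbt1 (-1.41 ± 0.37), a scavenger receptor protein that binds bacteria, Clca3b (-1.004 ± 0.28) and Guca2a (-0.99 ± 0.26), the hormone guanylin, were lower in the colon.

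Further genes were nearly confined to colon goblet cells of this pair. Mptx1 had 859, 2161 and 3631 CPM in the colon, against 1.21, 9.79 and 65.5 CPM in the cecum (log2 change 7.53 ± 0.46, edgeR adjusted p = 8.79e-10). The synaptic scaffold gene Dlg2 had 379, 486 and 662 CPM in the colon, against 0, 1.47 and 8.26 CPM in the cecum (7.86 ± 0.33, edgeR adjusted p = 3.55e-12). Neither gene overlapped between tissues. The phospholipase Pla2g2f had 1 count in the cecum and was 285-fold higher in the colon (51.0 to 11287), and Ctnnd2 had 3 counts and was 74.2-fold higher (25.2 to 361). Spink1, a trypsin inhibitor (7.22 ± 0.68), Sval1 (6.80 ± 0.36) and Atp12a, a proton pump (6.85 ± 0.93), were higher too. Atp12a changed by 5.19 when cells with another cell type list, and with them cecal GF sample 4, were left out.

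Part of the secretory programme was higher in colon goblet cells. Of 16 fate factors 7 were higher and 1 lower. Spdef had 140.1, 195 and 302 CPM in the colon, against 46.9, 85.2 and 167 CPM in the cecum (log2 change 1.19 ± 0.22, edgeR adjusted p = 0.000486), with overlapping samples. Creb3l1, which expands the secretory pathway (1.33 ± 0.20), the co-repressor Cbfa2t3 (0.93 ± 0.19), Sox9 (0.69 ± 0.16) and Xbp1 (0.75 ± 0.13) rose, Sox4 fell (-0.94 ± 0.27), and Atoh1 did not pass (0.19 ± 0.17). Beside 9.49% of all genes that were higher and 15.2% that were lower, the lists that follow are described by count only. Among 32 ER folding genes (median log2 change -0.07, 18 of them negative) 5 were higher, including Txndc5 (0.64 ± 0.16), Edem1 (0.76 ± 0.14) and Ern2 (0.60 ± 0.13), and 1 was lower, Dnajb9 (-0.63 ± 0.19). Among 22 granule genes 5 were higher, such as Capn8 (1.200 ± 0.21) and Syt7 (1.03 ± 0.15), and 2 were lower. Of 13 Notch pathway genes, the ligand Jag2 fell (-1.88 ± 0.46) and no gene rose.

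Channels and defence genes were divided. Of 19 ion transport genes 8 were higher in the colon and 7 lower. The chloride channel gene Ano1, named after its values were seen like Best2, had 112, 147 and 355 CPM in colon goblet cells, against 5.76, 9.99 and 18.7 CPM in cecal goblet cells (log2 change 4.22 ± 0.29, edgeR adjusted p = 3.43e-09). Best2 (0.997 ± 0.25), Slc12a8 (0.97 ± 0.21) and the calcium pump Atp2a3 (0.86 ± 0.20) were higher, and the bicarbonate carrier Slc4a4 (-1.21 ± 0.22) and Nlrp6 (-1.03 ± 0.34) were lower. Of 9 antimicrobial and oxidase genes 5 were higher and 2 lower. The oxidase Duox2 had 50.3, 65.6 and 95.03 CPM in the colon, against 0, 4.61 and 12.2 CPM in the cecum (3.95 ± 0.35, edgeR adjusted p = 1.19e-07), without overlap, while the related oxidase Nox1 was lower (-1.36 ± 0.40). The membrane mucin Muc4 was higher (1.75 ± 0.18) and Muc16 lower (-5.50 ± 0.53), among 3 of 6 that were higher and 1 that was lower.

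Further genes were lower in colon goblet cells. St3gal5, the GM3 synthase of glycolipids, had 1.51, 3.03 and 10.8 CPM in colon goblet cells, against 84.2, 118 and 186 CPM in cecal goblet cells (log2 change -4.83 ± 0.28, edgeR adjusted p = 3.78e-10), without overlap. Fa2h, a sphingolipid hydroxylase (-2.97 ± 0.26), the synaptic gene Rims1 (-3.96 ± 0.24), Pld5 (-3.55 ± 0.28), the myosin Myh10 (-3.55 ± 0.51), Nek10 (-3.46 ± 0.49) and the complement gene C1qa (-3.18 ± 0.46) were lower too. Sct, the hormone secretin, changed by -3.83 ± 0.42, and the 14 enteroendocrine markers, of which it is one, summed to 3.88 to 23.2 CPM in colon goblet cells, against 33.4 to 69.4 CPM in cecal GF and 26.5 to 233 CPM in cecal Abx_14D goblet cells. Every cecal sample was above every colon sample in this sum, with Neurod1, Insl5 and Fev at 0 counts in all 4 groups. The part of such transcripts in these differences was not tested.

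Absorptive transcripts moved with part of this result. The 12 absorptive markers summed to 1422 to 2387 CPM in colon goblet cells, against 1503, 6167, 6119 and 13682 CPM in cecal GF samples 1 to 4 and 1644 to 3057 CPM in cecal Abx_14D samples. Cecal GF samples held 0, 4, 6 and 9 goblet cells that also met another cell type list. Cyp2c65, a cytochrome P450, had a log2 change of -4.56 ± 0.38, and of -3.60 without such cells. For the carboxylesterase Ces1g the values were -3.47 ± 0.44 and -2.72. Leaving out such cells also dropped cecal GF sample 4, left with 18 goblet cells, under the minimum of 20. The part of such cells, or of that sample, in these differences was not tested further. Of 21 fatty acid oxidation genes 14 fell and none rose, which became 5 without such cells and that sample, and 10 with TMM scaling. Of 21 cell cycle genes 12 fell and none rose. No count is given at 2% or more, where only cecal Abx_14D sample 3 was left of that group. Interferon genes gave 4 higher and 2 lower of 49, clock genes 3 higher and 2 lower of 15, innate sensing genes 2 higher and 3 lower of 23, and nicotinic acid and NAD genes 2 higher and 1 lower of 16, of which Cd38 rose (0.65 ± 0.17) and Nadk fell (-0.69 ± 0.13). The stem and progenitor list had 3 higher and none lower of 10, the type 2 response list 1 and 1 of 6, the MHC class II list 1 and none of 2 and the dissociation stress list none and 1 of 16.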

How the data were processed

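The deposited files are a table of raw counts, in unique transcripts, for 24609 barcodes and 33696 genes, with a cell table and a gene table that names GRCm39. The submitters' processing notes name mm39 and Seurat but give no version, and no aligner or counter is named in the sources read. Libraries were made with the Parse Biosciences Evercode WT split-pool kit from polyA RNA, in 8 sublibraries that each hold every condition, per the labels, so groups were taken from the 32 loaded-sample names of the deposited cell table. Row sums equalled the deposited totals for all 24609 barcodes, and no cell barcode occurred more than once.

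Barcodes with at least 500 transcripts (15916) were kept. Raw counts of member cells were summed per numbered sample (at least 20 members; 8 colon and 8 cecal samples) and tested with edgeR 4.0.16 (quasi-likelihood, library-size scaling, default low-count filter) under R 4.3.3, with Benjamini-Hochberg adjustment over all genes tested and a threshold of 0.05. Colon against cecum used the mean of GF and Abx_14D in each tissue. The goblet against other-cell interaction used the sample as a block. DESeq2 1.42.0 was an alternative. Shares were compared with exact permutation tests (Python 3.11.15). CPM are counts per 1000000 transcripts of a sum, with no correction for gene length. Intervals and floors (3 counts) cover counting error only. The script was tested on counts simulated with known changes, at a fixed spread not taken from these samples. Of log2 changes of 1, it called 59.8% for GF against Abx_14D and 86.9% for colon against cecum. For the difference of GF effects it called 20.2% between tissues and 19.4% between goblet and other colon cells. Of log2 changes of 2, it called 100%, 100%, 94.8% and 85.9% in the same order. The colon sums held 773513 to 3072441 transcripts. Alternatives covered TMM scaling, no filter, stricter marker and depth limits, left-out samples and mixed cells, and a replicate block.

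The members and gene lists were chosen with earlier results of these data known. Named genes were the 12 called genes with the largest change in each direction, at 20 CPM or more in the higher group and with sample ranges apart, without rule genes and predicted genes, plus up to 6 called and 4 uncalled members of each list; other genes are said to be chosen after their values were seen. Genes shown by marker strength were chosen that way. Some genes that meet the rule are not reported here.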

Additional observations from a re-analysis of the deposited data

Results flagged for a closer look

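Among 174 groups of 4 samples, 13 (7.47%) held 1 sample far from the other 3. The limit used gives about 1 in 20 for normally distributed values. A group with counts in only 1 sample exceeds it whatever the count, so these shares cannot be compared. In colon goblet cells, a sample stood apart as the highest of the GF samples for Agr2 (1616 CPM) and Iigp1 (0.892 CPM, 2 counts) and as the lowest of them for Nek10 (1.30 CPM). Among the Abx_14D colon samples, Spink1 had a low sample (9.05 CPM), and Muc16 (0.513 CPM), Sct (14.4 CPM) and Ces1g (10.6 CPM) had a high one. In cecal goblet cells, Mptx1 (65.5 CPM), Sval1 (6.68 CPM) and Pla2g2f (0.732 CPM) had a high GF sample and Fcgbp a low one (4399 CPM), while Hoxb13 (1.21 CPM) and Atp12a (2.04 CPM) had a high Abx_14D sample. Several of these values are single counts or few counts.

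The GF effect on Slfn4 in goblet cells exceeded that in the other colon cells by 2.58 on the log2 scale by a test of the difference itself (edgeR interaction, adjusted p = 0.0239). It was the 1 gene of 12634 that passed.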

How the results depend on the processing

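For GF against Abx_14D in colon goblet cells, the count of 66 became 112 with DESeq2, 229 with no filter on low counts and 13 in members under 2% (added after the data were seen), and ranged from 51 to 84 without 1 sample; 40 of the 66 genes passed in all 8 of those fits. For 27 named genes, 385 of 446 alternative values kept the direction and the call, 61 missed the threshold and 0 changed sign. For colon against cecum, the count of 2526 became 1274 in members at 2% or more and ranged from 2122 to 2952 without 1 sample. In members at 2% or more, the log2 change turned to -0.061 for Ern1, 0.12 for Cftr and 0.11 for Gucy2c. Only sample 3 was left of the cecal Abx_14D samples in that setting. No conclusion is therefore drawn from its count for colon against cecum, or from its count for the difference between tissues given below. Of 2564 values for 107 genes over all alternatives, 2286 kept direction and call. For the difference between tissues in the GF effect, 0 became 20 with DESeq2, 164 with no filter, 6 at 2% or more and 5 without members over 100000 transcripts (added after the data were seen), and 0 to 28 without 1 sample. For goblet against other colon cells, 1 became 7 with DESeq2, 104 with no filter and 0 without mixed cells. It became 21 at 2% or more, where only Abx_14D samples 2 and 3 were left of that group. The count ranged from 0 to 5 without 1 sample, with 5 without Abx_14D sample 1. The cause of these shifts was not tested. The difference in goblet share ranged from 1.78 to 4.19 points without 1 sample, and its exact permutation p from 0.143 to 0.457 over all alternatives.

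Same-numbered colon samples had deviation correlations of -0.08, 0.22, 0.25 and -0.08. Colon and cecal samples of the same number had 0.21, -0.012, 0.19 and 0.25 in GF and 0.16, 0.21, 0.16 and -0.020 in Abx_14D. As not every pair was over 0.1, the numbers were not taken to pair samples. Colon and cecal samples thus entered the main fits as separate samples. A block for the number within each condition was not fitted. With the replicate block, 48 genes passed for GF against Abx_14D (5 higher and 43 lower; Neat1, Cacna1h, Plcl1, Eif2ak2 and Ifih1 were not among them, at edgeR adjusted p 0.0532 to 0.12), 2499 for colon against cecum and 0 for the tissue difference. Members at 5% or more left too few cells per sample for the fits across genes, which were not run. Depth limits genes at a few counts, where a sample's sum of 773513 transcripts puts 1 count above 1 CPM, and 22 to 51 goblet cells a cecal sample limit the comparisons between tissues.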

Other observations

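Colon cells of the Abx_4D and Ctrl samples lie outside the rule and entered no comparison. At the same marker threshold, 38 of 1026 colon Abx_4D cells were goblet cells (3.70%, exact 95% interval 2.63% to 5.05%). Of these 1026 cells, 857 came from 1 sample. Of the colon Ctrl cells, 4 of 50 were goblet cells (8%, exact 95% interval 2.22% to 19.2%). A single sample gave 38 of the 50 cells and 3 of the 4 goblet cells. These intervals cover counting error only.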
